A study of Mus musculus with 2 samples.

Results

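The Wnt pathway members measured here were 42 protein-coding genes, of 55536 genes in the gene tables: 19 Wnt ligands, 10 Frizzled receptors, the co-receptors Lrp5 and Lrp6, 9 secreted inhibitors and the scaffolds Axin1 and Axin2. They were chosen by gene symbol (Wnt, Fzd, Sfrp or Dkk followed by a digit, and Lrp5, Lrp6, Wif1, Axin1 and Axin2), a rule with no threshold on a measured value. The RNA came from left cerebral cortex of 14-day-old males of B6CASTF1/J, an F1 hybrid of C57BL/6J and CAST/EiJ, and was sequenced as total RNA. Both libraries, replicates 1 and 2, carry the same strain, sex, age and tissue and form 1 group with no treatment. There are therefore no conditions to compare, and values are described without tests. Each library has its own biosample and replicate number in the labels, but a single donor entry covers both and 3 males are mentioned, so separate animals are not established and the spread between the libraries may be technical.

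Wnt ligands are secreted glycoproteins that carry a fatty acid, by which they are held in the cysteine-rich domain of a Frizzled receptor. With Lrp5 or Lrp6 as co-receptor, the complex draws Axin to the membrane and stops the degradation of β-catenin, which then acts with TCF/LEF factors in the nucleus; other Wnts act through Frizzleds, Ror or Ryk receptors without β-catenin. In the brain the pathway is known for patterning the cortex and hippocampus, for guiding axons and shaping dendrites and synapses, and for building the vessels of the blood-brain barrier.

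The fatty acid sits on a conserved serine, and the codons around it are shown because they are the stretch that the secreted ligands share. The site was searched by its conserved cysteine, histidine, glycine and serine pattern in the longest complete coding sequence of each gene, and each of the 19 ligands had 1 match. Of the 18 sequences read out here, from GENCODE M21 transcripts on mm10, 16 spell the serine with a codon that starts in TC, and 2 spell it AGT. Each line gives 24 bases of coding sequence, 5′ to 3′, with the serine codon in capitals.
Wnt7b: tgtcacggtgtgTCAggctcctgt
Wnt7a: tgccatggtgtgTCAggctcctgt
Wnt9b: tgccatggtgtgTCAggctcctgt
Wnt4: tgtcacggggtgTCGggctcctgc
Wnt9a: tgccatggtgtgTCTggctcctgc
Wnt5a: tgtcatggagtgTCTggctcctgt
Wnt2: tgtcatggtgtgAGTggctcctgt
Wnt2b: tgtcacggtgtgAGTggctcctgt
Wnt3a: tgccacgggctaTCTggcagctgt
Wnt7a and Wnt9b are spelled alike and share 22 of 24 bases with Wnt7b, the highest ligand of these libraries. Wnt4, Wnt5a and Wnt2b share 21, Wnt9a and Wnt2 share 20, and Wnt3a shares 17. Wnt2 and Wnt2b are the pair with the AGT codon. Over longer stretches most ligands are distinct on the transcribed strand: 15 of the 19 Wnt ligands share no 31-base word with a transcript of any other gene. Words on the opposite strand were not compared. Wnt7b, Wnt11 and Wnt5a overlap exons of genes on that strand.

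The libraries held 28377847 and 30982776 expected counts in replicates 1 and 2, which are reads assigned by the authors' quantifier. Of these, 28263225 and 30862813 were on genes. Levels are given as TPM, a unit that divides counts by transcript length and scales each library to the same total, so that genes can be compared. Neuronal markers (Snap25, Rbfox3, Stmn2 and Syt1) summed to 1777 and 1898 TPM in replicates 1 and 2. The libraries were not alike for markers of tissue next to the cortex. The 5 striatal markers summed to 303 and 68.7 TPM. The 5 choroid plexus markers summed to 32.6 and 124 TPM, of which Ttr alone held 30.37 and 118.47. Markers of other cell types differed too: 4 oligodendrocyte markers summed to 482 and 312 TPM, and 4 inhibitory neuron markers to 472 and 352 TPM. The part of all these markers in the differences between the libraries was not tested. In bulk tissue, fewer cells of a type and less RNA per cell cannot be told apart.

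The pathway was present at low to middle levels, carried by a few genes in each role. Of the 42 members, 24 (57.1%) reached a TPM of 1 in both libraries, close to the 58.7% of 22015 nuclear protein-coding genes that did. Wnt10a and Wnt6 reached it in replicate 2 alone, and 16 members stayed below it in both libraries. The members that reached TPM 1 in both had a median of 5.22 and 4.80 TPM, below the 15.97 and 15.9 TPM of the protein-coding genes that did the same. By role, 7 of 19 ligands, 9 of 10 Frizzleds, both co-receptors, 4 of 9 inhibitors and both Axins reached TPM 1 in both libraries. Summed levels were 50.73 and 51.49 TPM for the ligands, 68.40 and 73.47 TPM for the Frizzleds, 24.42 and 25.78 TPM for the co-receptors, 42.77 and 51.24 TPM for the inhibitors and 24.93 and 23.49 TPM for the Axins.

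**Figure D1:**
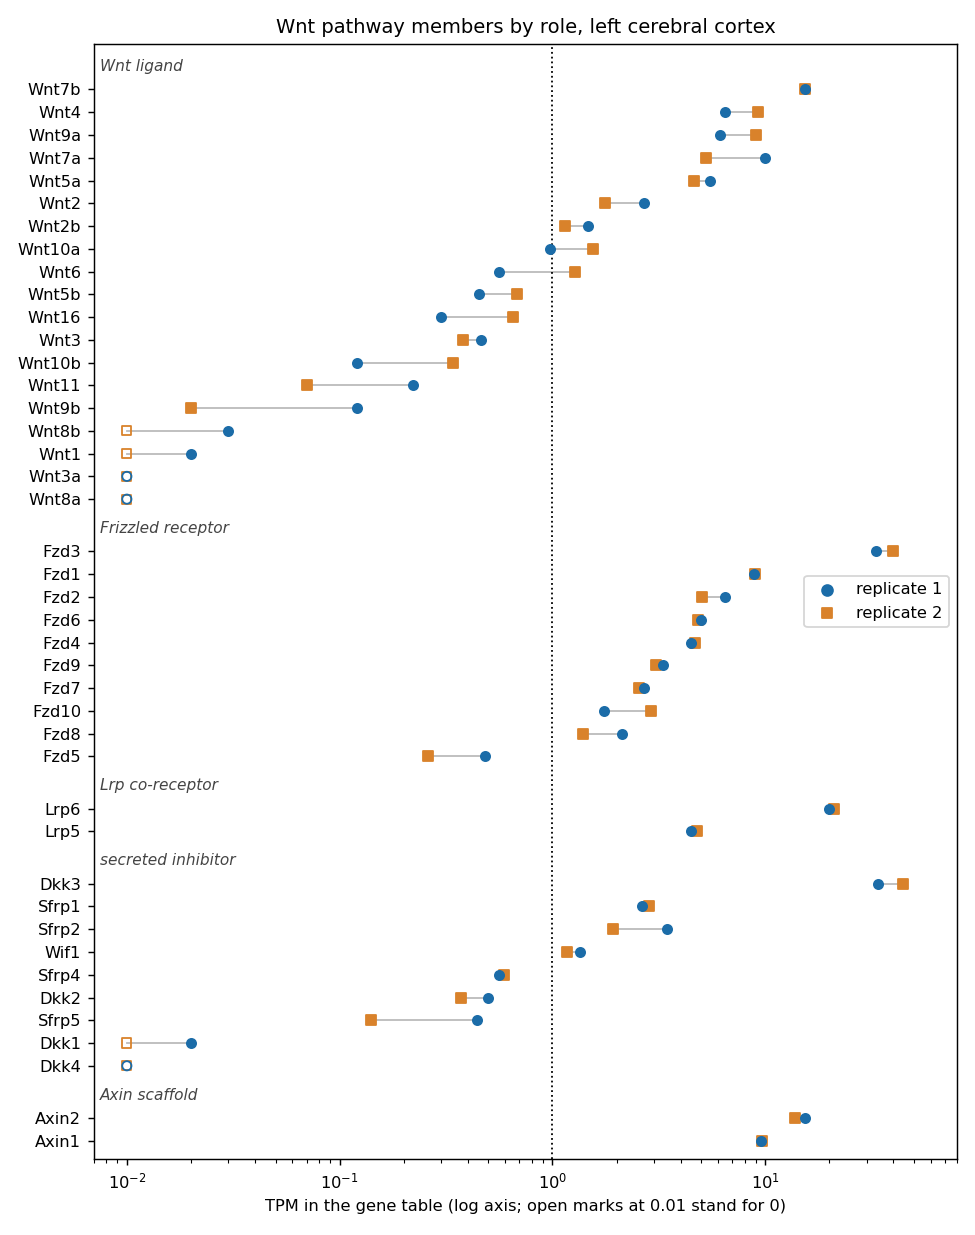
TPM of each of the 42 members in the gene table on a log axis, by role, with a circle for replicate 1, a square for replicate 2 and a line between them; open marks at the left stand for a TPM of 0 and the dotted line marks TPM 1. Dkk3 and Fzd3 stand above 33 TPM in both libraries, while most ligands lie left of the dotted line.

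Among the members with a mean TPM of at least 1, which numbered 25, the order of levels ran from Dkk3 at 39.0 ± 7.36 TPM through Fzd3 at 36.5 ± 4.65, Lrp6 at 20.5 ± 0.743, Wnt7b at 15.3 ± 0.0566 and Axin2 at 14.6 ± 1.07 (SD, n = 2) to Wif1 at 1.26 ± 0.120. Of the 24 steps between neighbours in that order, 7 separated genes whose values in the libraries did not overlap. They were Fzd3 above Lrp6, Lrp6 above Wnt7b, Axin2 above Axin1, Axin1 above Fzd1, Fzd6 above Lrp5, Fzd4 above Fzd9 and Fzd9 above Sfrp1. In coding transcripts alone, Fzd6 at 3.21 and 3.24 TPM lay below Lrp5 at 4.2 and 4.19, and Axin1 at 9.56 and 7.90 TPM was not separated from Fzd1 and averaged below it. Dkk3 and Fzd3 were not separated, nor were Wnt7b and Axin2 in the gene table, and the run from Fzd1 through Wnt4, Wnt9a, Wnt7a, Fzd2 and Wnt5a to Fzd6 held no separated step.

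Wnt7b was the highest ligand in both libraries. Wnt7b (ENSMUSG00000022382.15; mm10 chr15:85535437-85582473, minus strand), known for its role with Wnt7a in brain angiogenesis and in dendrite growth, had 15.30 and 15.38 TPM in replicates 1 and 2, from 862 and 921 expected counts. The values were nearly equal, and they made up 30.2% and 29.9% of the summed TPM of all 19 ligands. Its opposite strand overlaps AU022754 over 6.6% of its exon bases, and that gene stood at 0.57 and 0.53 TPM.

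Wnt4, Wnt9a, Wnt7a and Wnt5a followed, with Wnt5a below Wnt4 and Wnt9a in both libraries. Wnt4 (chr4), which acts with and without β-catenin depending on the tissue, had 6.47 and 9.29 TPM, or 7.88 ± 1.99 (SD, n = 2). Of its 31-base words, 5.84% occur in transcripts of other genes, the highest share among the members. Wnt9a (chr11:59306928-59333552, plus strand), known from joint and limb development, had 6.13 and 9.08 TPM, or 7.61 ± 2.09 (SD, n = 2). Wnt4 and Wnt9a were both higher in replicate 2, and each stayed below Wnt7b in both libraries. Wnt5a, the best known ligand of the β-catenin-independent branch, had 5.47 and 4.62 TPM, or 5.05 ± 0.601 (SD, n = 2). In coding transcripts alone Wnt5a had 3.88 and 3.73 TPM. Wnt7a, the partner of Wnt7b in vessel growth and a synaptic organiser, was listed at 9.95 and 5.24 TPM, or 7.60 ± 3.33, the widest relative spread of these 5 ligands.

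The listed level of Wnt7a rests on short transcripts. The first transcript table put 25.77 and 10.3 of its counts (12.82% and 5.92%) on Wnt7a-202 and Wnt7a-203, processed transcripts of 297 and 293 nt, and since TPM divides by length these carried 69.8% and 49.9% of its TPM. The coding transcript Wnt7a-201, of 3172 nt, stood at 3.00 and 2.63 TPM. The second transcript table assigned all of its reads to Wnt7a-201, at 5.28 and 4.35 TPM. In counts, Wnt7a had 201 and 174 in replicates 1 and 2, a log2 CPM difference of -0.30, against a log2 TPM ratio of -0.93. The deposited intervals of its TPM, 7.19 to 13.12 and 3.81 to 7.61, overlap. Wnt7a ranked 10 among the members by the gene table, 15 by the second transcript table and 16 by coding transcripts alone, and its share of ligand TPM was 19.6% and 10.2% in the gene table and 7.14% and 5.56% in coding transcripts.

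**Figure D2:**
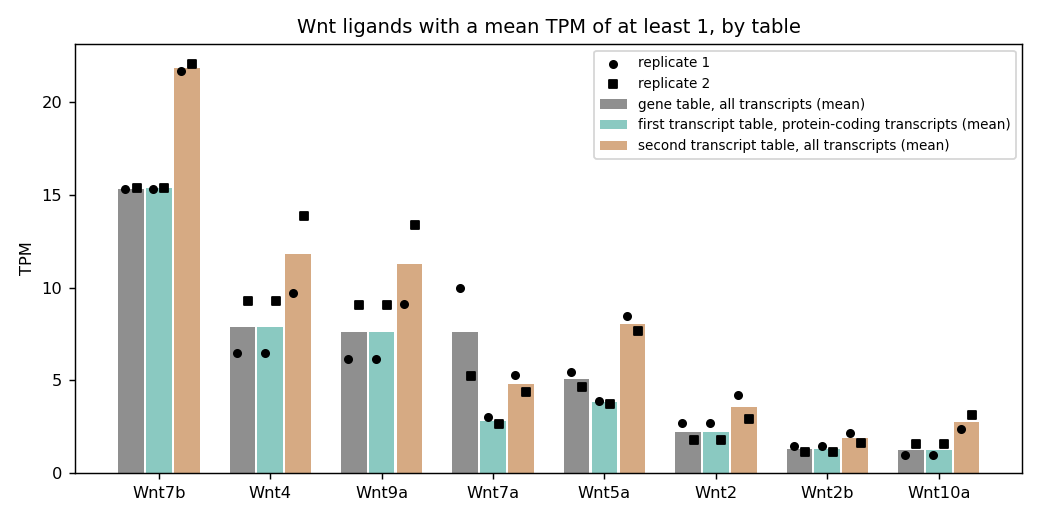
TPM of the ligands with a mean of at least 1, with bars for the mean of both libraries in the gene table, in the protein-coding transcripts of the first transcript table and in the second transcript table; circles are replicate 1 and squares replicate 2. Wnt7a stands level with Wnt4 and Wnt9a in the gene table, at 7.60 TPM, and below them by both other sums.

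Wnt2 and Wnt2b, paralogs of the β-catenin branch, were the remaining ligands above TPM 1 in both libraries. Wnt2 had 2.69 and 1.76 TPM, and Wnt2b had 1.47 and 1.15 TPM. Wnt2 was the higher of the pair in each library, with a log2 ratio of 0.70 ± 0.18 (SD, n = 2, on TPM with 0.1 added). Wnt10a, a ligand of skin appendages and teeth, had 0.97 and 1.55 TPM from 37 and 57 counts, and its neighbour Wnt6 had 0.56 and 1.28 TPM from 21 and 37 counts. In replicate 2 the retained-intron transcript Wnt6-202 held 47.6% of Wnt6 TPM, and coding transcripts alone gave 0.56 and 0.67 TPM.

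The other 10 ligands stayed below TPM 1 in both libraries. Wnt5b had 0.45 and 0.68 TPM, Wnt16 had 0.30 and 0.65, Wnt3 had 0.46 and 0.38, and Wnt10b had 0.12 and 0.34. Wnt11 had 6 and 3 counts and Wnt9b had 10 and 2. Wnt8b had 2 counts and Wnt1 1 count in replicate 1, and neither had any in replicate 2. Wnt3a and Wnt8a, ligands of the early embryo, Wnt3a also of the cortical hem that organises the hippocampus, had 0 counts in both libraries. A level of up to 3 counts in a library, 0.106 and 0.097 CPM at these depths, can give a count of 0, and this limit covers counting error only.

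The paralog pairs among the ligands were unequal. Wnt7a was lower than Wnt7b by a log2 TPM ratio of -1.08 ± 0.65 in the gene table (SD, n = 2), and -2.17 ± 0.21 in the second table and -2.41 ± 0.14 in coding transcripts. Wnt5a was higher than Wnt5b, at 2.97 ± 0.53, and Wnt10a higher than Wnt10b, at 2.09 ± 0.27. Wnt5b and Wnt10b were low, and with 1 added to TPM in place of 0.1 these ratios were 1.95 and 0.87. Wnt4 was lower than Wnt7b, at -0.98 ± 0.36. The direction was the same in both libraries for each of these pairs.

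Several of these ligand genes lie side by side, in 4 pairs, and in all of them but Wnt9a with Wnt3a both genes were low. Wnt9a and Wnt3a are divided by 16.2 kb on chromosome 11 and transcribed away from each other, with no coding gene between them. Wnt9a had 375 and 593 counts, while Wnt3a had none. Wnt3 and Wnt9b form a second such pair on chromosome 11, 24.3 kb apart, with 26 and 23 counts for Wnt3 and 10 and 2 for Wnt9b. Wnt1 and Wnt10b lie 11.7 kb apart on chromosome 15, with 1 and 0 counts for Wnt1 and 6 and 12 for Wnt10b. Wnt6 and Wnt10a lie 6.2 kb apart on chromosome 1 in the same orientation, and both were higher in replicate 2. Of the 4 neighbouring pairs, Wnt9a with Wnt3a was the one in which a gene at several TPM stood beside a gene at 0.

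**Figure D3:**
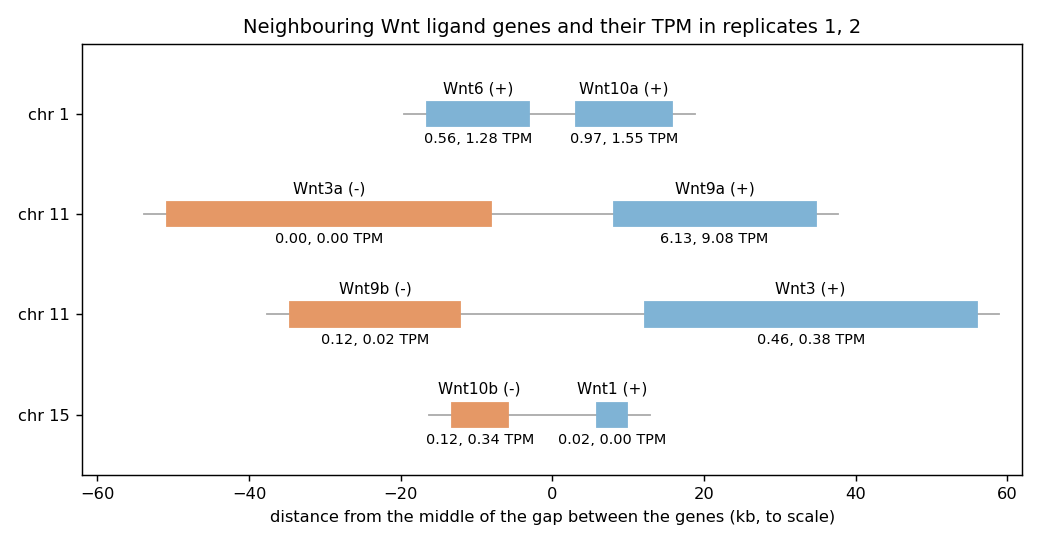
Gene maps of the 4 neighbouring ligand pairs, drawn to scale as distance in kb from the middle of the gap between the genes, with boxes coloured by strand (+ or - beside the name) and the TPM in replicates 1 and 2 under each gene. Wnt9a stands at 6.13 and 9.08 TPM next to Wnt3a at 0, while the genes of the other 3 pairs lie at or below 1.55 TPM.

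The 250 bases before the starts of Wnt9a and Wnt3a are printed because these neighbours, at several TPM and at 0, are both dense in CpG. The sequences are from RefSeq on GRCm38.p6, the assembly that mm10 names, 5′ to 3′ on the strand of the gene, with each CpG in capitals.
Wnt9a, chr11:59306680-59306929, plus strand: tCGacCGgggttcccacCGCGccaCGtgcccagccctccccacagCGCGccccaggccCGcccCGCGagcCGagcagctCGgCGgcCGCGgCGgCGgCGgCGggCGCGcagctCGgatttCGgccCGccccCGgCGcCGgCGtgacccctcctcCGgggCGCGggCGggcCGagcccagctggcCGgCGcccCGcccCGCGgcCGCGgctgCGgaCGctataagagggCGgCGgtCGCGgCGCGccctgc
Wnt3a, chr11:59290752-59291001, minus strand: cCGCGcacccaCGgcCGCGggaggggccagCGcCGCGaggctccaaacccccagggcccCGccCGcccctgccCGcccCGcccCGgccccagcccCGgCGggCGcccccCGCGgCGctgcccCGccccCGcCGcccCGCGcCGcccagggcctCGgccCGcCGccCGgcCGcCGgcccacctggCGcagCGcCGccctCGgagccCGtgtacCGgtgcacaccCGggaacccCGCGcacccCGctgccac
Wnt9a has 48 CpG and 84.4% G or C in this window, and Wnt3a has 41 CpG and 87.6%. RefSeq entries were matched for 27 of the 42 members, with 30 windows in all, and these held a median of 22 CpG and 68.6% G or C, against 10 CpG and 56.0% over 20150 windows of protein-coding genes. Among the members the CpG count ran from 4, at a Wnt5b start, to 48 at Wnt9a. The core word of TCF/LEF sites, CTTTGA on either strand, was found in 4 member windows (13.3%), those of Dkk1, Fzd1, Wnt11 and Wnt5b, and in 12.6% of all windows. The window of Axin2 did not hold these letters.

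Fzd3 led the Frizzleds by a wide margin. Fzd3 (ENSMUSG00000007989.7; chr14:65192449-65262463, minus strand), a receptor needed for the growth and guidance of major axon tracts, had 33.21 and 39.79 TPM, from 7968 and 10198 counts. It held 48.6% and 54.2% of the summed TPM of the 10 Frizzleds. Its counts were the highest of all members, and all of them fell on Fzd3-202, a transcript of 12734 nt, so that its TPM stood near that of Dkk3, which had 2093 and 2924 counts on 3359 nt. Its closest relative by sequence, Fzd6, which acts in planar polarity of hair and skin, had 4.98 and 4.83 TPM. The log2 TPM ratio of Fzd3 to Fzd6 was 2.87 ± 0.21 (SD, n = 2), and 3.46 ± 0.18 in coding transcripts alone.

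Fzd1, Fzd2 and Fzd7 form a subfamily of closely related receptors, and all were detected. Fzd1 had 8.90 and 8.99 TPM, nearly the same in both libraries. Fzd2, a receptor that also takes part in Wnt5a signalling, had 6.50 and 5.04 TPM, and Fzd7 had 2.70 and 2.54 TPM. Fzd1 was above Fzd2 by a log2 ratio of 0.64 ± 0.27 and above Fzd7 by 1.73 ± 0.07 (SD, n = 2). Their transcripts are mostly distinct in sequence: 1.61% of the 31-base words of Fzd1, 1.90% of those of Fzd2 and 0.78% of those of Fzd7 occur in another gene.

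The remaining Frizzleds were lower than Fzd1 and Fzd2, while Fzd4 and Fzd9 lay above Fzd7 in both libraries. Fzd4, the receptor of Norrin and of vessel growth in retina and cerebellum, had 4.48 and 4.66 TPM. Fzd9, known from hippocampal development, had 3.29 and 3.08 TPM, and Fzd10 had 1.74 and 2.89 TPM; these paralogs were not separated, with a log2 ratio of 0.49 ± 0.56 (SD, n = 2). Fzd8 had 2.12 and 1.39 TPM. Fzd5, its closest relative and a receptor of eye development, was the single Frizzled below TPM 1, at 0.48 and 0.26 TPM, a log2 ratio of Fzd5 to Fzd8 of -1.99 ± 0.08 (SD, n = 2). With 1 added to TPM in place of 0.1, that ratio was -1.0. An antisense gene, Gm38058, covers 17.8% of the exon bases of Fzd5 and stood at 0.14 and 0.13 TPM.

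Lrp6 was the main co-receptor. Lrp6 (ENSMUSG00000030201.15; chr6:134446476-134566965, minus strand) had 19.95 and 21 TPM, and Lrp5, which is best known from bone mass and retinal vessels, had 4.47 and 4.78 TPM. Lrp6 made up 81.7% and 81.5% of the co-receptor TPM. The log2 TPM ratio of Lrp6 to Lrp5, 2.12 ± 0.015 (SD, n = 2), varied least between the libraries of the 17 ratios taken.

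Dkk3 was the highest of all 42 members and dominated the secreted inhibitors. Dkk3 (ENSMUSG00000030772.6; chr7:112116017-112159057, minus strand), a divergent Dickkopf that lacks the typical Lrp-blocking activity of Dkk1, had 33.81 and 44.22 TPM. It made up 79.1% and 86.3% of the summed TPM of the 9 inhibitors. The typical Dickkopfs, which bind Lrp5 and Lrp6, were at or near 0. Dkk2 had 0.50 and 0.37 TPM, Dkk1 had 1 and 0 counts, and Dkk4 had 0 counts in both libraries, although the second transcript table assigned 4.13 and 5.88 reads to Dkk1 and 5 and 6 to Dkk4. Dkk3 exceeded Dkk2 by a log2 ratio of 6.19 ± 0.52 (SD, n = 2).

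Secreted Frizzled-related proteins bind Wnts through a domain like that of the receptors. Sfrp1, known from cortical progenitors, had 2.64 and 2.83 TPM, and Sfrp2 had 3.46 and 1.92 TPM. Which of them was higher differed between the libraries, and their log2 ratio was 0.08 ± 0.65 (SD, n = 2). Sfrp4 had 0.56 and 0.59 TPM, and Sfrp5 had 0.44 and 0.14 TPM. The Wnt-binding inhibitor Wif1 had 1.34 and 1.17 TPM, but 0.89 and 0.77 TPM in its protein-coding transcripts.

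Axin1 is the limiting scaffold of the complex that degrades β-catenin. Axin2 is a scaffold of the same kind, and its gene is a common target of β-catenin signalling. Both were detected, at different levels. Axin2 (ENSMUSG00000000142.15; chr11:108920349-108950783, plus strand) had 15.37 and 13.86 TPM, and Axin1 had 9.56 and 9.63 TPM. Axin2 was above Axin1 in both libraries, by a log2 TPM ratio of 0.60 ± 0.11 (SD, n = 2) in the gene table and 1.08 ± 0.08 in the second table.

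Transcript use was read for members with a mean TPM of at least 5 and more than 1 annotated transcript. Of the 42 members, 20 have a single annotated transcript. Wnt9a and Fzd3 placed 100% of their TPM on a single coding transcript in both tables. Lrp6-201, the transcript of 9368 nt, held 67.6% ± 3.02 of Lrp6 TPM in the first table and 61.8% ± 4.77 in the second (SD, n = 2). Axin1-201 held 60.3% ± 0.940 and 61.1% ± 1.07. For Axin2 the tables differed: Axin2-201, of 4260 nt, held 63.9% ± 12.1 in the first table and 42.4% ± 8.80 in the second, and the short coding transcript Axin2-206, of 692 nt, held 13.2% ± 8.11 and 29.8% ± 10. Wnt7b divided its TPM over 3 coding transcripts, with 48.8% ± 8.58 on Wnt7b-202 in the first table, 26.5% ± 5.06 on Wnt7b-201 and 23.1% ± 1.21 on Wnt7b-204. The second table gave these 36.5% ± 0.34, 29.0% ± 5.98 and 26.9% ± 1.29. Wnt5a-201 held 51.8% ± 1.94 in the first table, the coding Wnt5a-202 held 24.1% ± 5.13, and the processed transcript Wnt5a-203 held 16.2% ± 1.97. In the second table they held 44.9% ± 2.59, 29.2% ± 0.548 and 25.96% ± 3.14.

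Between the libraries, a minority of members differed by more than 1.5-fold, and most of those were low. Differences were taken as log2 CPM, replicate 2 minus replicate 1, CPM being counts scaled to library size, for genes with at least 10 counts in a library. Of 35 members tested, 10 (28.6%) passed 1.5-fold, against 11.0% of all 18965 genes tested. Of these, 4 were higher in replicate 2, where 4.35% of all genes passed in that direction, and 6 were lower, where 6.61% did. With at least 50 counts in a library, 5 of 25 members (20.0%) passed, against 4.77% of genes. The median difference was -0.0045 over the members and -0.00034 over all genes, and the SD was 0.564 and 0.469.

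Of the 10, those with a mean TPM of at least 1 were Fzd10, Sfrp2, Wnt2 and Fzd8. Fzd10 had 104 and 185 counts in replicates 1 and 2, a log2 difference of 0.72 with a 95% counting interval of 0.38 to 1.09. Sfrp2 had 125 and 74 counts, a difference of -0.84 (-1.29 to -0.43), and its antisense neighbour Gm26771, which covers 16.1% of its exon bases, stood at 0.32 and 0.20 TPM. Fzd10 was higher in replicate 2 and the other 3 were lower. Wnt2, with 110 and 77 counts, differed by -0.60 (-1.05 to -0.18), and Fzd8, with 237 and 166 counts, by -0.61 (-0.91 to -0.32). The intervals are exact binomial and cover counting error only.

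The other 6 were low in both libraries. Fzd5, with 62 and 36 counts, differed by -0.85, Sfrp5, with 15 and 5, by -1.36, and Wnt9b, with 10 and 2, by -1.65. Wnt6, with 21 and 37 counts, Wnt10b, with 6 and 12, and Wnt16, with 11 and 22, were higher in replicate 2, at 0.67, 0.73 and 0.80. The counting interval lay off 0 for 7 of the 10 members, all but these 3 ligands, and it reached below 1.5-fold for each of the 10. By the reads of the second transcript table, 6 of the 10 passed too, namely Wnt9b, Sfrp5, Sfrp2, Fzd8, Wnt6 and Fzd10. Beside these members, 5 of 5 striatal, 3 of 4 oligodendrocyte and 1 of 4 inhibitory neuron markers were lower in replicate 2 past 1.5-fold. Of 5 choroid plexus markers 4 were higher past 1.5-fold and Clic6 was lower, at -1.17. The part of these markers in the differences was not tested.

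**Figure D4:**
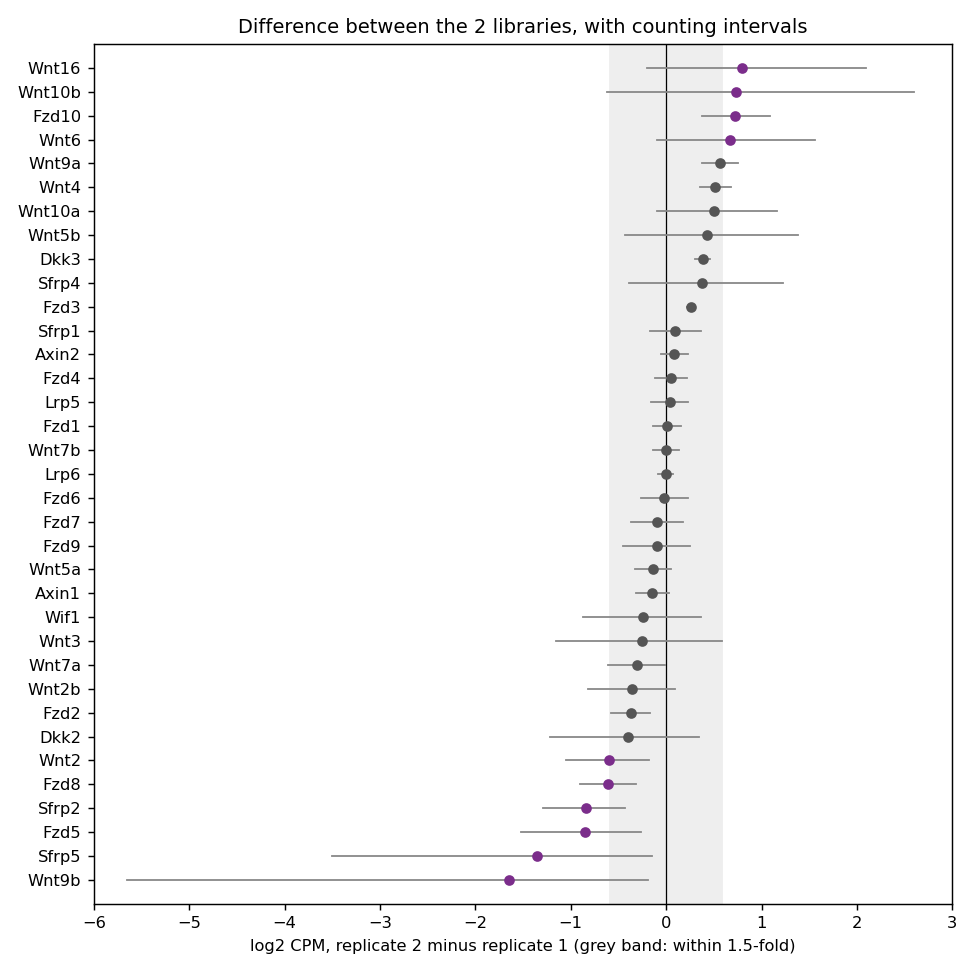
Log2 CPM difference, replicate 2 minus replicate 1, of the 35 tested members, ordered by that difference, with lines for the 95% counting interval and a grey band for differences within 1.5-fold. The 10 purple points lie outside the band, and the longest lines belong to members with few counts such as Wnt9b (10 and 2).

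The members with the highest levels lay within 1.5-fold. Dkk3 differed by 0.38, Fzd3 by 0.26, Axin2 by 0.09, Wnt7b by -0.0033 and Lrp6 by -0.0045. Wnt9a at 0.56 and Wnt4 at 0.52 came closest to the threshold of 0.585 from below among ligands above TPM 5.

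Of 73 other genes of the pathway, in 10 lists, 64 (87.7%) were detected, which here means TPM 1 in both libraries, beside 57.1% of the members. Among all nuclear protein-coding genes the share detected was 58.7%. Between the libraries 5 of 70 tested (7.14%) passed 1.5-fold, against 11.0% of all genes tested. The machinery that loads and carries Wnts was detected throughout, 5 of 5 genes: Porcn, the enzyme that attaches the fatty acid, had 35.68 and 37.89 TPM, the carrier Wls had 14.61 and 18.57, and the cargo receptor Tmed5 averaged 9.77 ± 0.382 TPM (SD, n = 2). Of the R-spondins and their Lgr receptors, which keep Frizzleds at the surface, 5 of 7 were detected, led by Lgr4 at 9.91 and 10.45 TPM, Rspo2 at 5.10 and 5.23, and Rspo3 at 4.44 and 5.15. Znrf3, a ubiquitin ligase that removes Frizzleds, had 10.59 and 10.87 TPM, and Kremen1, a Dickkopf receptor, had 6.20 and 5.77; 3 of 4 genes of receptor turnover were detected, with Rnf43, a ligase of the same kind, at 1.10 and 1.85 TPM.

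Further secreted and vascular partners were present. Apcdd1, a membrane inhibitor of Wnt signalling, had 27.75 and 27.86 TPM, Frzb, a relative of the Sfrps, had 10.75 and 12.20, and Ndp, the Norrin ligand of Fzd4, had 3.72 and 3.89; 6 of 8 genes of that list were detected. The partners of Wnt7a and Wnt7b in brain vessels, Adgra2 and Reck, had 5.71 and 6.65 TPM and 3.31 and 3.32 TPM, and Tspan12, a partner of Fzd4, had 12.42 and 11.79.

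Among the genes that act inside the cell, partners of the β-catenin degradation complex had the highest levels of the pathway. All 3 Dishevelleds, which relay the signal from Frizzled to Axin, were detected: Dvl1 had 36.28 and 37.17 TPM, Dvl3 had 35.46 and 37.41, and Dvl2 had 14.38 and 12.43. All 13 partners of the β-catenin degradation complex were detected, led by Ctnnb1, β-catenin itself, at 356.99 and 279.82 TPM, Apc at 279.40 and 309.16, and the kinase Csnk1a1 at 125.35 and 115.17. Ctnnb1 was lower in replicate 2 in the gene table and higher in it in the second transcript table, at 488 and 546 TPM. All 11 TCF/LEF factors and cofactors were detected, led by the corepressor Tle3 at 34.97 and 44.62 TPM and the coactivators Bcl9l at 36.54 and 34.70 and Pygo2 at 23.13 and 27.60. The TCF/LEF factors themselves were lower. Tcf7l2 had 7.04 and 6.21 TPM, Lef1 had 2.31 and 3.81, Tcf7l1 had 2.80 and 2.29, and Tcf7 had 2.65 and 2.41.

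Of 12 known targets of the pathway, 11 were detected, with Tnfrsf19 at 26.23 and 36.76 TPM, Apcdd1 as above and Ccnd1 at 13.66 and 11.98. Of 13 planar polarity genes and alternative Wnt receptors, 10 were detected, led by Prickle2 at 88.51 and 96.20 TPM, Celsr2 at 81.77 and 88.31, and Prickle1 at 33.12 and 39.42. The 5 pathway genes past 1.5-fold were Trabd2b, a protease that cleaves Wnts, at 0.75, Lgr6 at 0.74, the factor Lef1 at 0.68 and the Wnt5a receptor Ror2 at 0.63, all higher in replicate 2, and the axon guidance inhibitor Draxin, lower at -1.09.

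**Figure D5:**
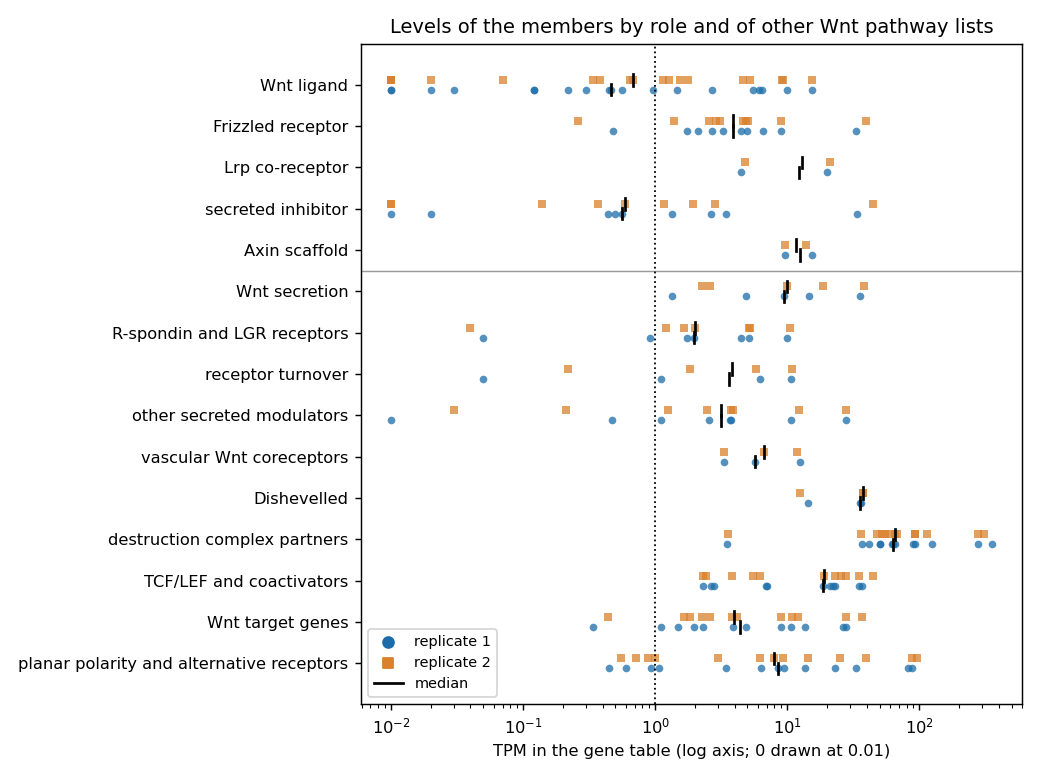
TPM on a log axis of the members by role (above the grey line) and of the other pathway lists (below it), with circles for replicate 1, squares for replicate 2 and black ticks for medians; the dotted line marks TPM 1 and a TPM of 0 is drawn at 0.01. The destruction complex partners, named for the degradation of β-catenin, have the highest medians, 63.14 and 64.87 TPM, while the Wnt ligands, at 0.46 and 0.68 TPM, and the secreted inhibitors, at 0.56 and 0.59 TPM, have medians left of the dotted line.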

How the data were processed

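Gene tables, a first transcript table and a second transcript table were deposited for each library, on mm10 with GENCODE M21 per the file headers and the deposited description files. The deposited expected counts are reads estimated for each gene or transcript, without normalization. TPM was deposited with spike-ins in its total, and the gene tables give an interval for each value. The deposited percent is the share of a gene's abundance in each transcript. Column names are those that RSEM (gene and first transcript table) and kallisto (second transcript table) write; the sources used here do not give tools, versions or use of strand, so antisense genes may share reads.

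The members and lists were chosen with earlier results of these data known. Members with a mean TPM of at least 1 are given in both libraries, and members below it by TPM, counts or both. Of each other pathway list the 3 highest are named, with any gene past 1.5-fold at a mean TPM of at least 1; the remaining genes past 1.5-fold were named after their values were seen. Neighbouring levels are called separated where values in the 2 libraries do not overlap, and a pair of genes is given a direction where it holds in each library and the mean log2 ratio of TPM + 0.1 exceeds its SD.

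Rounded expected counts were turned into log2 CPM in edgeR 4.0.16 under R 4.3.3 (TMM scaling, prior count 2). DESeq2 1.42.0 gave alternative size factors. Sequence, transcript and level steps used Python 3.11.15 with pandas 2.3.3, scipy 1.17.1 and matplotlib 3.10.9. Other filters, thresholds, scalings, the second transcript table, coding transcripts alone and each library alone were tried as alternatives. The difference step was tested on simulated counts for the difference between replicates 2 and 1 over 18965 genes. The simulation used 1 spread setting for all genes, not taken from the data. The 200 changed genes were drawn from those averaging at least 100 counts. Of those changed 4-fold, 100% passed 1.5-fold, and of those changed 2-fold, 96.0% did. Of unchanged genes with at least 100 counts, 0.958% did. Most members past 1.5-fold had fewer counts, and these rates do not cover them.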

Additional observations from a re-analysis of the deposited data

How the results depend on the processing

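The count of members at TPM 1 in both libraries was 24, and it was 27 at TPM 0.5, 18 at TPM 2, 27 with TPM rescaled to nuclear protein-coding genes, 25 in the second transcript table and 23 in coding transcripts alone, where Wif1 dropped out. Each library alone gave 24 to 26. The coding-transcript alternative was chosen after seeing the data. The count of members past 1.5-fold, 10, was 5 with at least 50 counts in a library, 6 by the second transcript table, where 11.4% of all genes passed, and 2 past 2-fold; it was 14 with no low-count filter and 10 with DESeq2 size factors, total counts alone or a prior count of 0.5. The median log2 difference of the members, -0.0045, was -0.033 with total counts alone, -0.091 with no low-count filter, -0.0091 with at least 50 counts and -3.3e-06 in the second transcript table. Of the 17 pair ratios none changed sign with another pseudocount or table, 10 moved by more than their SD with a pseudocount of 1, 6 in the second transcript table and 3 in coding transcripts. By single libraries, the ratio of Sfrp1 to Sfrp2, 0.08 on the log2 scale, was -0.38 without replicate 2 and 0.54 without replicate 1. The count of other pathway genes at TPM 1, 64, was 67 at TPM 0.5, 57 at TPM 2 and 66 in the second transcript table. TPM of detected members was a median of 1.44 times higher in the second transcript table, against 1.55 times for detected protein-coding genes, and 11 of the first 12 members were shared by both orders. Axin2, at 30.4 and 27.0 TPM, lay above Wnt7b, at 21.7 and 22.0 TPM, in that table. The TPM of single members moved by more than the spread between libraries for 35 of 42 in the second transcript table, 36 with rescaled TPM and 7 in coding transcripts. No paired analysis was possible because both libraries belong to 1 group, and no library could be left out of a difference between 2 libraries.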
